A study of Mus musculus with 24 samples.

Results

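Transcripts of 10 genes that are known from the oocyte, Zp1, Zp2, Zp3, Gdf9, Bmp15, Oosp1, Dppa3, Ooep, Nlrp5 and Figla, were followed through 24 RNA sequencing libraries of cultured mouse granulosa cells, the somatic cells that line the ovarian follicle. The genes were chosen by symbol, and all 10 of 10 were found among the 39253 genes of the deposited count table.

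The oocyte grows inside the follicle in contact with granulosa cells and builds stores of RNA and protein for the embryo. Its zona pellucida genes code for the glycoprotein coat around the egg. Its growth factors GDF9 and BMP15 are secreted to the surrounding granulosa and cumulus cells, which carry the receptors. Its maternal-effect genes, among them Nlrp5 and Ooep, act in the early embryo through a protein assembly below the egg's surface called the subcortical maternal complex.

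The cells came from C57BL/6 mice that were 23 days old and had received PMSG, a gonadotropin that starts follicle growth, 48 h earlier, and cells of 2 mice were pooled before plating. They were transfected for 3 h with a non-targeting siRNA (siNC) or with an siRNA against Nts, the neurotensin gene (siNTS), and then kept in plain medium (control) or with hCG, a hormone that acts through the luteinizing hormone receptor and sets off the ovulatory response. The 6 groups were siNC control, siNC hCG and siNTS hCG after 4 h, and the same after 12 h, with 4 libraries each. Libraries carry the labels A_1, A_2, B_2 and B_3, which follow the culture dates in the sample titles, with A_2 and B_2 on 1 date. The labels do not say whether libraries of 1 label came from separate pools of cells, so the p-values measure the spread between these libraries, part of which may be technical. A group with the Nts siRNA in plain medium was not analysed here.

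The libraries held between 26182192 and 45401151 counts, with a median of 39228508. Levels are given as CPM (counts relative to the total of the library, per 1000000) on library sizes scaled by TMM, and 3 counts, the limit that a count of 0 allows, correspond to 0.0651 to 0.108 CPM. All 10 listed granulosa markers had 3 or more counts in each of the 24 libraries, among them Foxl2, a transcription factor of granulosa cells, at 64.9 to 234 CPM. Nts ranged from 16.1 to 180 CPM with siNC and from 1.99 to 42.9 CPM with siNTS in the hCG groups at 4 h, and from 1.49 to 9.67 and from 0.0764 to 2.73 CPM at 12 h. It was lower with siNTS in 4 of 4 labels at each time, while its fall was not called by edgeR's quasi-likelihood test (adjusted p of 1 at both times).

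Promoter sequences are shown for 4 of the genes, because the first 3 of them (Zp3, Bmp15 and Oosp1) were high in the same libraries and the last (Ooep) had another pattern. RefSeq promoter sequences (build GRCm38.p6) were matched for 6 of the 10 genes. Zp1, Zp2, Gdf9 and Dppa3 are named only. Each line gives the 250 bases before the annotated start, 5′ to 3′ on the gene's strand. Capitals mark the E-box CANNTG, which reads the same on both strands and which FIGLA, an oocyte transcription factor, is known to use upstream of the zona genes. The windows are chr5:135979855-135980104 on the plus strand for Zp3, and, on the minus strand, chrX:6320725-6320974 for Bmp15, chr19:11691052-11691301 for Oosp1 and chr9:78378589-78378838 for Ooep. In the GENCODE M21 annotation Ooep starts at 78378725, Oosp1 at 11691150 and Zp3 at 135980099. These starts lie inside the windows, so by that annotation part of each, with the Ooep E-box, is within the gene.
Zp3: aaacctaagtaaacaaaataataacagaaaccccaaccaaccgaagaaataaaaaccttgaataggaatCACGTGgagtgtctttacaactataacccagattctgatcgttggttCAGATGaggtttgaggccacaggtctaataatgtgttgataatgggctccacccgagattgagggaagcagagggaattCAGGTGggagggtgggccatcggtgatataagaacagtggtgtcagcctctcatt
Bmp15: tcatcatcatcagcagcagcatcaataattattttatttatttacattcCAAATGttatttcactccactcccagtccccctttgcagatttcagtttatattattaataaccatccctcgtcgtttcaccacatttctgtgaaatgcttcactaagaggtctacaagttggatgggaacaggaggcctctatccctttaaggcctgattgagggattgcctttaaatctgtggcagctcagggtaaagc
Oosp1: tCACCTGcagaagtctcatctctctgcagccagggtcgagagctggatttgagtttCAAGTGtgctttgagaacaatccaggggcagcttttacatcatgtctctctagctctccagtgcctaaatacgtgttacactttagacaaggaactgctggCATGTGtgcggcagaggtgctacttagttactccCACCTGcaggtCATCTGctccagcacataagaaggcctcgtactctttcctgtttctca
Ooep: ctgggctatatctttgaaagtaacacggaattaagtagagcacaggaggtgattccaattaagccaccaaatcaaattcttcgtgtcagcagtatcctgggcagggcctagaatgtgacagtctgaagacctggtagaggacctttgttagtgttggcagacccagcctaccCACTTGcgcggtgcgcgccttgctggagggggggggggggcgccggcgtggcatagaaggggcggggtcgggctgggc

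The Zp3 window held 3 E-boxes, the Oosp1 window 5, and the Bmp15 and Ooep windows 1 each, and no matches shared bases. Of all 32851 promoter windows of 250 bases, 66.2% held at least 1 E-box, 12.2% held 3 or more, and 1.15% held 5 or more. The motif TAATTG, known as a site of the oocyte factor NOBOX, was searched on both strands. It was found 1 time in the Ooep window and not in the other 3 windows, against 7.17% of all windows. The CpG dinucleotide was present 11 times in the Ooep window, 5 times in that of Zp3, 4 times in that of Oosp1 and 2 times in that of Bmp15, with a median of 6 over all windows. These matches describe the letters of the windows and were not tested against the expression data.

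Most of the oocyte transcripts were found in a few libraries, spread over 5 of the 6 groups. Zp1, Zp2, Zp3, Bmp15, Oosp1 and Nlrp5 all had their 6 highest counts in the same 6 libraries: siNC control 4 h A_1 and B_2, siNC hCG 4 h A_1, siNTS hCG 4 h B_2, siNC control 12 h B_3 and siNTS hCG 12 h A_1. The summed count of these 6 genes was 66, 340, 195, 365, 245 and 182 in those libraries, in that order, and between 1 and 6 in each of the other 18 libraries. These 6 libraries were picked by these very counts, so they are described one by one and not averaged or tested as a group.

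**Figure D1:**
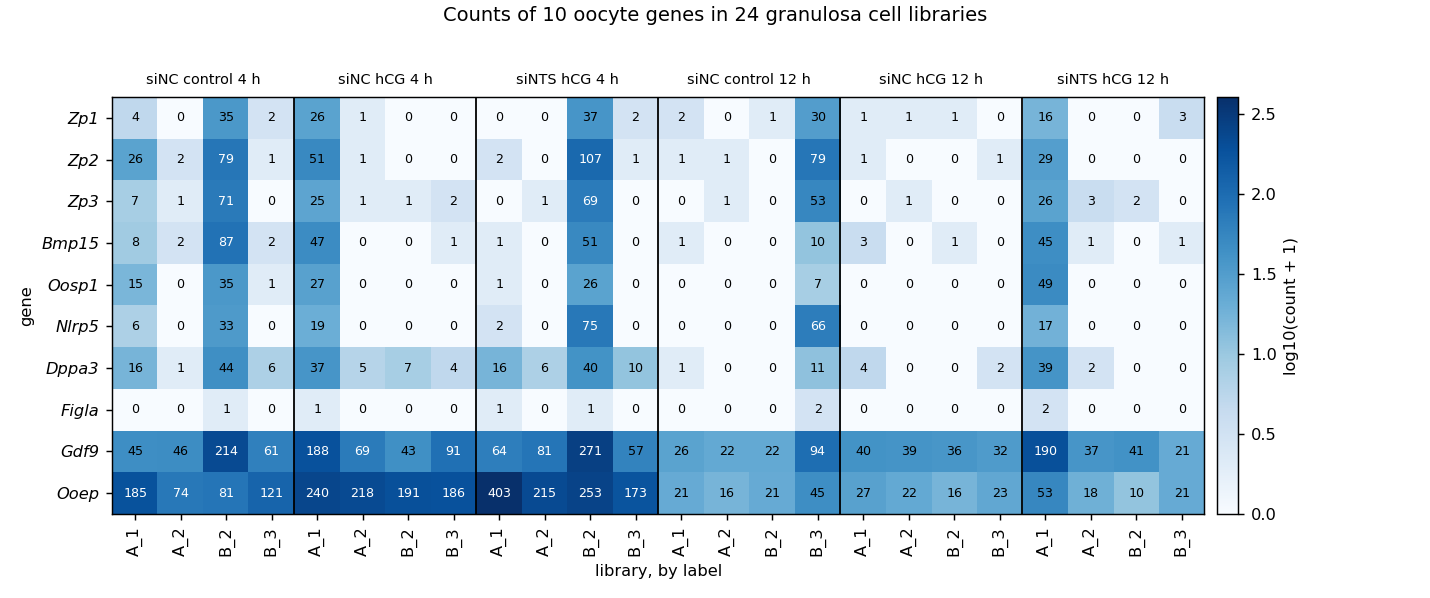
Counts of the 10 oocyte genes (rows) in the 24 libraries (columns, by group and label), with the count printed in each cell and the shade giving log10(count + 1). Zp1, Zp2, Zp3, Bmp15, Oosp1 and Nlrp5 are dark in the same 6 columns and at 3 counts or fewer in the other 18, whereas Gdf9 and Ooep have counts in every column.

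Zp2, which codes for the zona protein on which sperm binding depends, had 26, 79, 51, 107, 79 and 29 counts in the 6 libraries named above and at most 2 in any other. Zp3, a second main zona protein, had 7, 71, 25, 69, 53 and 26 counts there and at most 3 elsewhere. Zp1, whose protein cross-links zona filaments, had 4, 35, 26, 37, 30 and 16 counts there and at most 3 elsewhere. The lowest of the Zp1 counts, in siNC control 4 h A_1, stood only 1 count above the highest one outside. Per kilobase of its longest coding transcript in GENCODE M21, Zp1 was the lowest of the 3 zona genes in all 6 libraries, for example at 0.64 CPM per kb beside 1.27 for Zp2 and 1.93 for Zp3 in siNC control 4 h B_2.

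Bmp15, the X-linked partner of Gdf9 among the oocyte's growth factors, had 8, 87, 47, 51, 10 and 45 counts in these libraries and at most 3 elsewhere. Oosp1, which codes for a secreted oocyte protein, had 15, 35, 27, 26, 7 and 49 counts there and at most 1 elsewhere. Nlrp5, also called Mater, had 6, 33, 19, 75, 66 and 17 counts there and at most 2 elsewhere, with 0 counts in 17 of the 24 libraries. Figla, the transcription factor that starts the zona programme in growing oocytes, had 8 counts over all 24 libraries and never more than 2 in 1 library. It was at 0 in 18 libraries, did not pass the filter on low counts and was below 3 counts throughout. In the 6 libraries named above it had 0, 1, 1, 1, 2 and 2 counts, and at most 1 in any other. These counts are too few to read a pattern from.

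These libraries were of several groups and labels. By group there were 2 of 4 in siNC control 4 h, 1 of 4 in each of siNC hCG 4 h, siNTS hCG 4 h, siNC control 12 h and siNTS hCG 12 h, and 0 of 4 in siNC hCG 12 h. By label there were 3 of 6 for A_1, 0 of 6 for A_2, 2 of 6 for B_2 and 1 of 6 for B_3. Libraries of the same label and time differed from each other: at 4 h the B_2 libraries summed to 340 counts in control, 1 with siNC and hCG, and 365 with siNTS and hCG. A_2 and B_2 share a culture date, and the A_2 libraries held 1 to 5 counts of the 6 genes.

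**Figure D2:**
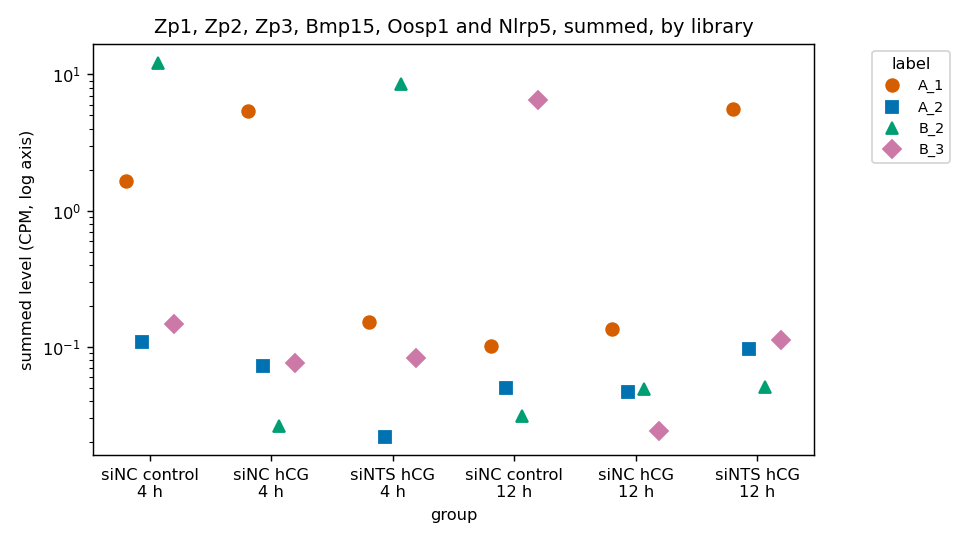
Summed level of Zp1, Zp2, Zp3, Bmp15, Oosp1 and Nlrp5 (CPM, log axis) in each library, by group, with the label given by colour and shape. The 6 libraries that hold these transcripts lie between 1.66 and 12.2 CPM, the other 18 between 0.0219 and 0.151 CPM, and each group except siNC hCG 12 h has at least 1 library in the upper range.

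The make-up of the oocyte counts also differed among the 6 libraries. Bmp15 made up 24.7% of the counts of the 6 genes in siNTS hCG 12 h A_1 (exact Clopper-Pearson 95% interval 18.6 to 31.7) and 4.08% in siNC control 12 h B_3 (1.97 to 7.38). Oosp1 made up 26.9% (20.6 to 34.0) and 2.86% (1.16 to 5.8) in the same pair of libraries. Nlrp5 went the other way, with 9.34% (5.54 to 14.5) in the first and 26.9% (21.5 to 33.0) in the second. The shares of Zp1, from 6.06% to 13.3%, and of Zp3, from 10.6% to 21.6%, had intervals that overlapped across all 6 libraries. The intervals cover counting error only, since sequenced reads without molecular identifiers are not independent molecules, and with 1 library for each case the differences belong to the libraries and not to a treatment.

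**Figure D3:**
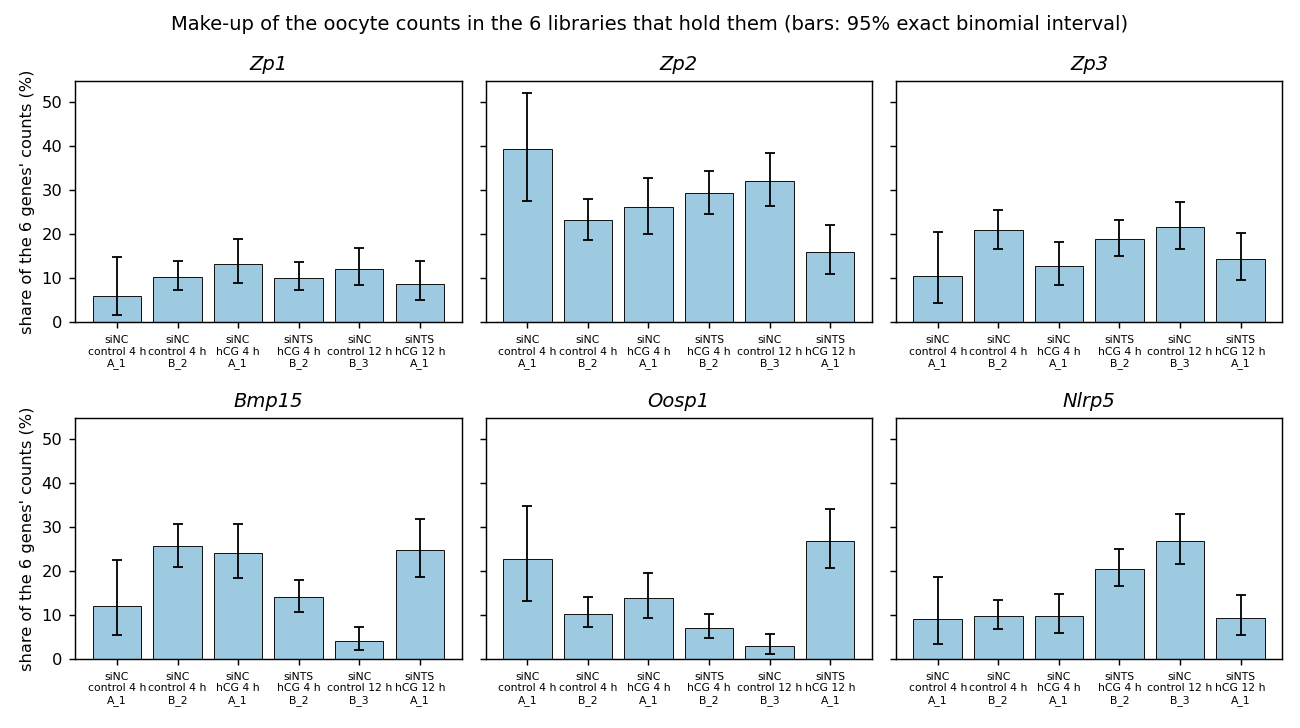
Share of each gene in the summed counts of Zp1, Zp2, Zp3, Bmp15, Oosp1 and Nlrp5 (percent) in the 6 libraries that hold these transcripts, with the exact binomial 95% interval as the error bar. Bmp15 and Oosp1 are lowest in siNC control 12 h B_3, at 4.08% and 2.86%, and Nlrp5 is highest there, at 26.9%.

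Other oocyte genes were also high in these libraries. Of 36 further oocyte genes on a list, 29 had their highest count in 1 of the 6 libraries, beside 20.4% of the 26328 genes with a count. All 6 libraries stood above the other 18 for 11 of the 36, beside 0.224% of genes with a count. These 11, named after their values were seen, were Zar1, H1f8, Padi6, Khdc3, Nlrp14, Nlrp4f, Nlrp9b, Pou5f1, Oosp3, Kpna7 and Omt2b. For Pou5f1, Oosp3, Omt2b, Kpna7 and Nlrp9b the lowest count in the 6 libraries was 2, 1, 2, 3 and 3. The highest count elsewhere was 1, 0, 1, 2 and 0 for the same genes, so these leads lie at or below the 3-count limit. Nlrp14, a relative of Nlrp5, had 32 to 239 counts in the 6 libraries and at most 2 elsewhere. Padi6, a maternal-effect gene that is needed for the egg's cytoplasmic lattices, had 42 to 175 counts there and at most 6 elsewhere. Zar1, a regulator of maternal RNA, had 18 to 88 there and at most 8 elsewhere, and H1f8, the oocyte's linker histone, 8 to 112 and at most 5.

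**Figure D4:**
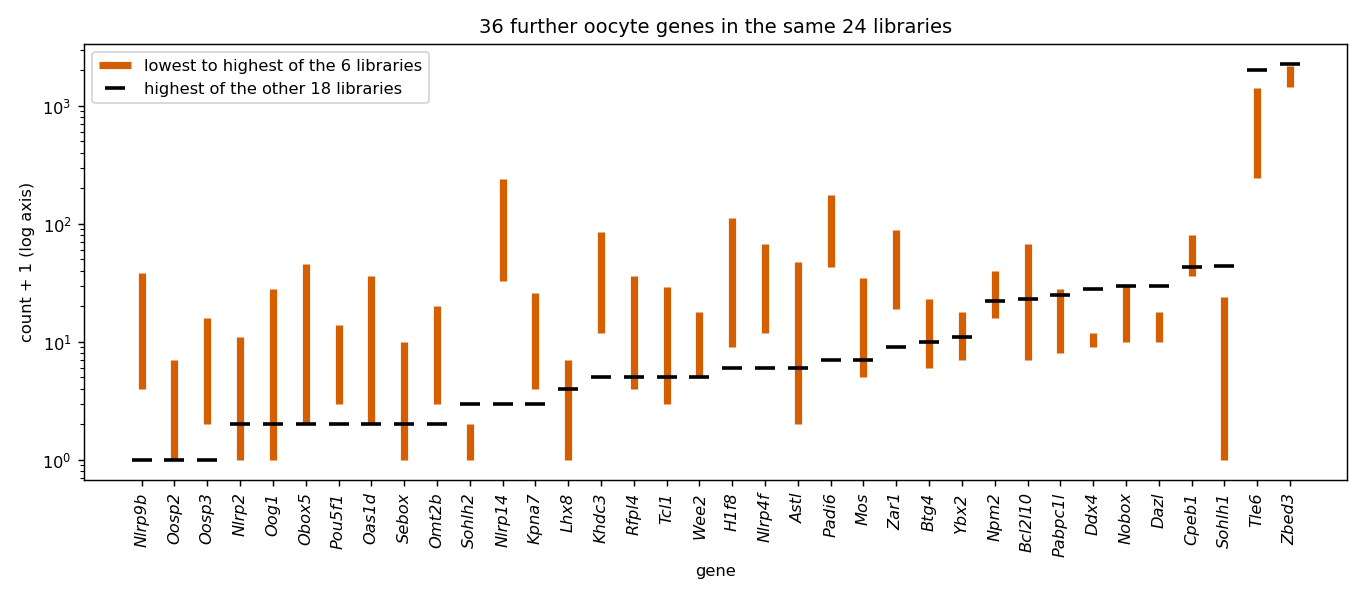
Counts (plus 1, log axis) of 36 further oocyte genes: the orange bar spans the lowest to the highest of the 6 libraries that hold zona transcripts, and the black tick is the highest of the other 18. For genes such as Nlrp14 and Padi6 the whole bar lies above the tick, whereas Tle6 and Zbed3 at the right have at least 204 and 1347 counts in every library.

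Cumulus cells, the granulosa cells that stay attached to the egg, were looked at through a list of 8 genes, all of which had counts in all 24 libraries. Their summed level was 166 to 436 CPM in the 6 libraries with oocyte transcripts and 154 to 595 CPM in the other 18. These ranges overlapped, but they pool groups of unlike level. By group this sum ran from 167 to 280 CPM in siNC control 4 h, from 348 to 595 in siNC hCG 4 h and from 336 to 546 in siNTS hCG 4 h, and from 154 to 277 over the 3 groups at 12 h. Within siNC control 4 h it was 167 and 190 CPM in A_1 and B_2, which held oocyte transcripts, and 214 and 280 in A_2 and B_3. The library with oocyte transcripts was also the lowest in siNTS hCG 4 h (336) and siNTS hCG 12 h (166). It was not the lowest in siNC hCG 4 h (436) or siNC control 12 h (225). Tnfaip6 and Ptx3, which stabilise the matrix of the expanding cumulus, and Ptgs2, an enzyme of prostaglandin synthesis, were the 3 of 8 called higher with hCG at 4 h, beside 19.1% of all genes called.

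None of the oocyte genes was called for hCG or for the Nts siRNA in the main fit, which used all 24 libraries and no replicate block. Alternative fits that called Ooep with hCG at 4 h are given below. In the fit of all 24 libraries, 15405 genes were tested with edgeR's quasi-likelihood test, 9 of the 10 oocyte genes among them, and a call means an adjusted p under 0.05. For hCG at 4 h, 0 of 9 were called, beside 19.1% of all genes tested. For hCG at 12 h, 0 of 9 were called, beside 16.5%. The difference between these 2 hCG effects was called in 0 of 9, beside 3.8%. For the Nts siRNA, 0 of 9 were called at 4 h, beside 0.00649% of all genes, and 0 of 9 at 12 h, beside 0.162%. Before adjustment, 1 of these tests fell under 0.05, that of Oosp1 for the Nts siRNA at 12 h (adjusted p = 1 in edgeR's test). DESeq2, which gave an adjusted p for 6 or 7 of them, called 0 in each of these 5 contrasts.

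That single case rested on 1 library, since Oosp1 had 49 counts in siNTS hCG 12 h A_1 and 0 in the other 7 libraries of the contrast. The lowest adjusted p for hCG at 12 h, 0.18, belonged to Nlrp5, which had 66 counts in siNC control 12 h B_3 and 0 in the other 7 libraries. For these sparse genes a fitted fold change follows single libraries, and none is given. In the authors' deposited tables of these 4 comparisons, 9 of the 10 genes were listed and 0 had an adjusted p under 0.05, the lowest being 0.051 for Ooep with hCG at 4 h.

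Ooep behaved differently from the zona genes. It codes for a protein with an RNA-binding fold in the subcortical maternal complex, and it had between 10 and 403 counts in all 24 libraries. In siNC control at 4 h its level was 4.64, 1.61, 2.91 and 2.98 CPM in A_1, A_2, B_2 and B_3. In siNC hCG at 4 h it was 6.68, 5.26, 5.00 and 4.71 CPM in the same order. In siNTS hCG at 4 h it was 10.1, 4.70, 5.85 and 4.81 CPM. The libraries at 4 h were above those at 12 h with 1 exception, siNTS hCG 12 h A_1, which at 1.63 CPM was level with the lowest library at 4 h.

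At 12 h the level of Ooep was 0.533, 0.399, 0.647 and 1.19 CPM in siNC control. It was 0.733, 0.512, 0.390 and 0.553 CPM in siNC hCG, and 1.63, 0.437, 0.255 and 0.592 CPM in siNTS hCG. The highest library of siNC control 12 h (B_3) and of siNTS hCG 12 h (A_1) were those with zona transcripts. At 4 h the highest libraries of siNC control (A_1, 4.64 CPM) and of siNC hCG (A_1, 6.68 CPM) held zona transcripts too. The other such library of siNC control 4 h, B_2, was at 2.91 CPM, below B_3 at 2.98 CPM. The highest Ooep level of all, 10.1 CPM or 403 counts in siNTS hCG 4 h A_1, lay in a library with 6 counts of the 6 genes above, so the Ooep level there did not come with zona transcripts.

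Ooep fell with time in culture. In siNC control it went from 3.03 ± 1.24 CPM at 4 h to 0.692 ± 0.346 CPM at 12 h (SD, n = 4 libraries each), and the groups did not overlap. The log2 fold change was -2.13 ± 0.441 (SE), with an adjusted p of 0.00089 in edgeR's quasi-likelihood test, and 4 of 4 labels were lower at 12 h. It was the only one of the 9 oocyte genes tested that was called for this contrast, beside 30.8% of all genes. In siNC hCG the level was 5.41 ± 0.873 CPM at 4 h and 0.547 ± 0.142 CPM at 12 h. The log2 fold change was -3.30 ± 0.455 with an adjusted p of 5.2e-06, and again 4 of 4 labels were lower. This contrast was added after the values were seen, and it called 1 of 9 oocyte genes beside 43.2% of all genes. In bulk RNA, fewer cells of a type and less RNA per cell cannot be told apart.

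With hCG at 4 h, Ooep was higher in 4 of 4 labels, and the lowest hCG library (4.71 CPM) stood just above the highest control library (4.64 CPM). The log2 fold change was 0.84 ± 0.404, with an adjusted p of 0.16, so it was not called. With the replicate label as a block, which pairs libraries of the same culture date, it was 0.92 with an adjusted p of 0.022. Without the A_1 libraries it was 1.02 with an adjusted p of 0.039, all from edgeR's test. At 12 h the log2 fold change with hCG was -0.34 ± 0.465 with an adjusted p of 0.66, and 2 of 4 labels were higher. The 2 hCG effects differed by -1.17 ± 0.616 on the log2 scale, which edgeR's test did not call (adjusted p = 0.30). The Nts siRNA changed the level by 0.24 ± 0.397 at 4 h and 0.39 ± 0.465 at 12 h on the log2 scale, neither called (adjusted p of 1).

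**Figure D5:**
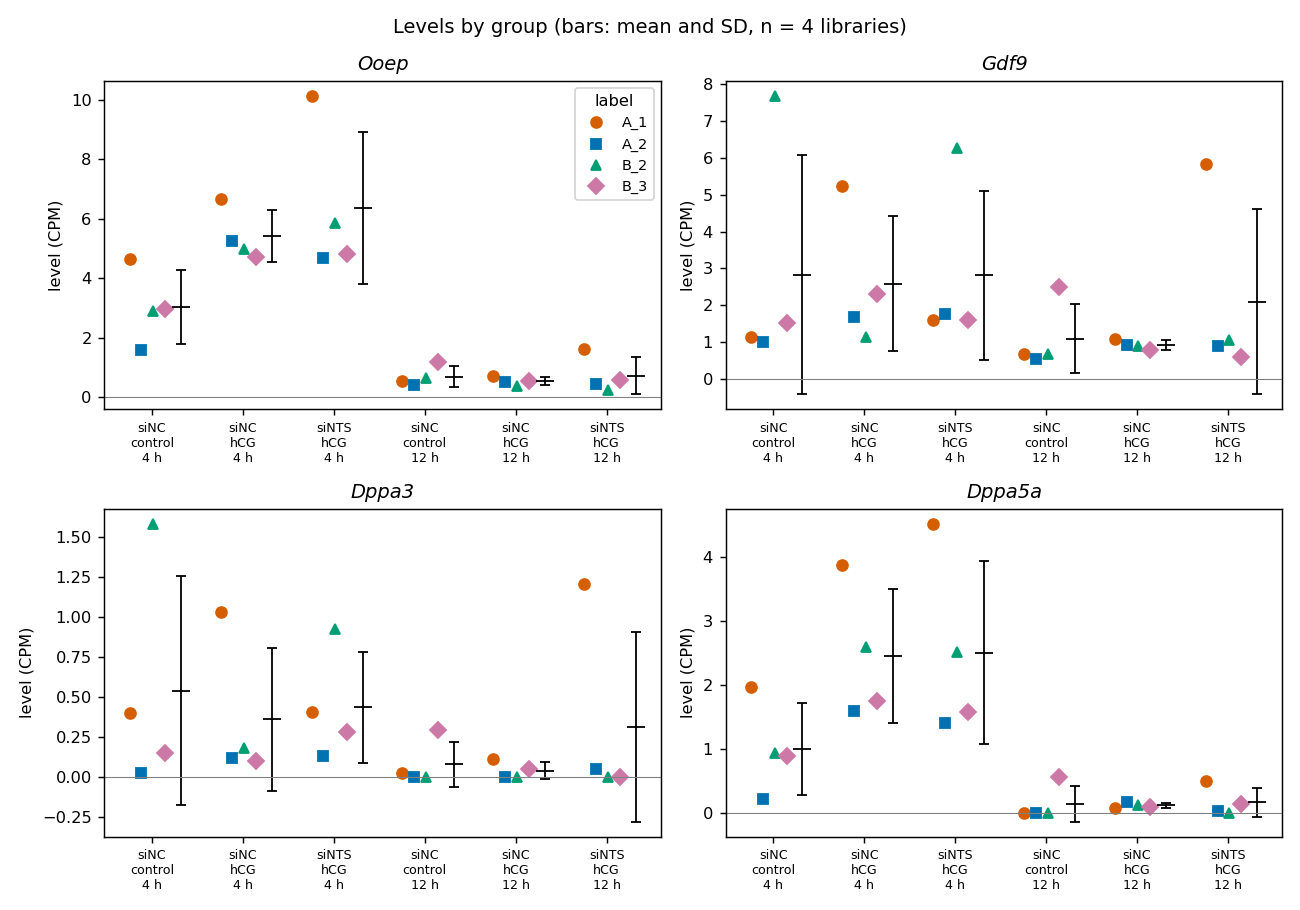
Levels (CPM) of Ooep, Gdf9, Dppa3 and Dppa5a in each library by group, with labels by colour and shape and the mean and SD of 4 libraries as black bars. Ooep and Dppa5a are high in the groups at 4 h and low at 12 h, whereas Gdf9 and Dppa3 have single libraries far above the rest of their group, such as 7.69 CPM of Gdf9 in siNC control 4 h B_2.

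Dppa5a, a gene known from pluripotent cells that neighbours Ooep on the same strand in the RefSeq annotation, had a like course. Its level was 0.998 ± 0.718 CPM in siNC control, 2.45 ± 1.04 in siNC hCG and 2.51 ± 1.43 in siNTS hCG at 4 h, and 0.138 ± 0.277, 0.116 ± 0.0356 and 0.164 ± 0.227 CPM at 12 h (SD, n = 4). In siNC control it had 78, 10, 26 and 36 counts at 4 h and 0, 0, 0 and 21 at 12 h. It was called lower at 12 h (adjusted p = 0.028 in edgeR's test), with no fold given since its counts at 12 h lie in 1 library, B_3, which held zona transcripts. With hCG at 4 h the difference of 1.30 ± 0.776 was not called (adjusted p = 0.28). Reads of related copies of Dppa5a and Dppa3 elsewhere in the genome may be shared with these genes, so their counts are uncertain.

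Gdf9, the growth factor that the oocyte sends to its granulosa cells, was present in all 24 libraries with 21 to 271 counts. Single libraries stood above the rest of their groups, with 7.69 CPM in siNC control 4 h B_2, 5.23 in siNC hCG 4 h A_1, 6.26 in siNTS hCG 4 h B_2, 2.48 in siNC control 12 h B_3 and 5.85 in siNTS hCG 12 h A_1. These are 5 of the 6 libraries with zona transcripts. The sixth, siNC control 4 h A_1, had 1.13 CPM, within the range of 0.549 to 2.31 CPM of the 18 libraries without them.

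In the RefSeq annotation the start of Gdf9 overlaps that of Uqcrq, a gene of the respiratory chain on the opposite strand. The protocols name a stranded mRNA kit, while the sources used here do not state whether strand was used in counting. Uqcrq stood at 85.4 to 307 CPM, with the highest level in siNC control 4 h A_1, and its part in the Gdf9 counts was not tested. Gdf9 was called in no contrast. The log2 fold change with time in siNC control was -1.35 ± 0.771 (adjusted p = 0.19 in edgeR's test), and it was 0.0159 without the B_2 libraries.

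Dppa3, also called Stella, protects the maternal genome's methylation after fertilisation. It lay between these patterns: 14 of 24 libraries had 3 or more counts. In the 6 libraries with zona transcripts it had 16, 44, 37, 40, 11 and 39 counts. Among the other libraries it had 1 to 16 counts at 4 h and 0 to 4 at 12 h, with the highest of these in siNTS hCG 4 h A_1, the library that was also highest for Ooep and Dppa5a. It was not called with time in siNC control (adjusted p = 0.16 in edgeR's test).

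The partners of Nlrp5 and Ooep in the subcortical maternal complex did not share one pattern. Khdc3 (Filia) followed the zona genes, with 11 to 85 counts in the 6 libraries and at most 4 elsewhere. Tle6, a transcriptional co-repressor relative that is part of the complex, and Zbed3, a zinc-finger protein that is also part of it, were present in every library, at 5.13 to 51.5 and 34.4 to 58.1 CPM. Tle6 rose with time where Ooep fell: its level in siNC control was 14.0 ± 3.26 CPM at 4 h and 43.4 ± 6.13 CPM at 12 h (SD, n = 4), a log2 fold change of 1.64 ± 0.171 with an adjusted p of 5.8e-07 in edgeR's test. With hCG at 4 h it fell by 0.849 ± 0.17 on the log2 scale (adjusted p = 0.0011), and Zbed3 fell by 0.448 ± 0.113 with hCG at 12 h (adjusted p = 0.0074).

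Across the list of 36 further oocyte genes, 26 were tested. With time in siNC control, 2 rose (Tle6 and Sohlh1) and 2 fell (Nobox and Bcl2l10), together a share below the 30.8% called among all genes. The median log2 fold change was -1.45 beside -0.00661 over all genes tested. This median was not computed without single labels. Of the libraries with zona transcripts, siNC control 4 h held 2 and siNC control 12 h held 1, so the median is not read as a fall of oocyte genes with time. With hCG, 1 fell at 4 h (Tle6, beside 19.1% of all genes called) and 1 at 12 h (Zbed3, beside 16.5%). The Nts siRNA changed 0 at either time in edgeR's test, beside 0.00649% at 4 h and 0.162% at 12 h. The list's median log2 fold change with the Nts siRNA at 12 h was 2.28, and it was -0.28 without the A_1 libraries, which include siNTS hCG 12 h A_1. With hCG at 12 h it was -1.65, and -0.0631 without the B_3 libraries. With hCG at 4 h it was -0.847, and 0.851 without the B_2 libraries.

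The receptors and SMAD proteins through which granulosa cells read GDF9 and BMP15 were present whether or not a library held oocyte transcripts. All 12 genes of this list were tested. With hCG at 12 h, 6 fell and 1 rose, beside 16.5% of all genes called, and at 4 h 2 fell, a share below the 19.1% called among all genes. Bmpr1b, a type I receptor that BMP15 uses, fell by 1.16 ± 0.181 at 4 h (adjusted p = 9.2e-05) and by 1.47 ± 0.182 at 12 h (adjusted p = 4.3e-06) on the log2 scale. Smad9 fell by 2.08 ± 0.27 and by 2.00 ± 0.266 (adjusted p = 1.1e-05 at both times). Bmpr2, the type II receptor that both ligands share, fell by 0.964 ± 0.2 at 12 h (adjusted p = 0.0014). Tgfbr1, the type I receptor known for GDF9, rose by 1.60 ± 0.239 at 12 h (adjusted p = 4.5e-05), all from edgeR's test. The other 3 that fell at 12 h were Acvr1b, Smad3 and Smad5. The Nts siRNA changed 0 of 12 at either time, beside 0.00649% and 0.162% of all genes.

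Among markers of other cells, 6 of 8 macrophage markers fell in siNC control between 4 h and 12 h, beside 30.8% of all genes called. In siNC hCG, where Ooep fell too, 3 of 8 of them fell, a share below the 43.2% called among all genes. Their summed level was 13.1 to 30.8 CPM in siNC control 4 h and 5.08 to 9.29 CPM in siNC control 12 h, and all 8 had counts in every library. It was 19.9 to 26.7 CPM in siNC hCG and 18.4 to 25.9 in siNTS hCG at 4 h, and 11.6 to 16.5 and 10.1 to 13.3 CPM at 12 h. With hCG only 1 of the 8, Csf1r, was called, and it was higher at 4 h and 12 h. Its adjusted p was 0.00027 and 4.7e-06 in edgeR's test, so the sums with hCG are not read as more macrophage RNA. Of 3 erythrocyte markers 0 were called with time in siNC control, with a median log2 fold change of -1.8. Their sum was 252 to 3210 CPM in siNC control, 227 to 2260 in siNC hCG and 242 to 2120 in siNTS hCG at 4 h, and 85.2 to 1100, 79.1 to 678 and 138 to 626 CPM at 12 h. In each group at 4 h this sum was higher in A_1 and B_2 than in A_2 and B_3, so it differed by label as well as by time. The part of either list in the fall of Ooep was not tested. Theca and interstitial markers summed to 62.2 to 136 CPM, endothelial markers to 2.18 to 10.8 CPM and smooth muscle markers to 16.4 to 83.9 CPM over all libraries.

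The genes whose levels ran most like the summed level of the 10 oocyte genes over the 24 libraries were Ccno (Pearson r = 0.926), Dppa5a (0.868), Khdrbs2 (0.842), Shisa8 (0.828), Fam189a2 (0.825), Pphln1 (0.824), Fam174b (0.812), Fam53c (0.806), Map2k3os (0.805) and Cdo1 (0.801), among 12606 candidates. The sum is made up mostly of Ooep and Gdf9, and a few libraries with high values set much of these coefficients. With group means removed from both, Khdc1b came first (0.939), followed by Nlrp14 (0.899), Ccno (0.885), Padi6 (0.882) and Dppa5a (0.796). Khdc1b, Nlrp14 and Padi6 had medians of 0.0254, 0.0249 and 0.0484 CPM. They reached the mean of 0.5 CPM needed of a candidate only through libraries with zona transcripts, so their high r is partly set by that choice. The libraries share their culture dates, and no p-value is given for these coefficients.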

How the data were processed

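The authors deposited estimated counts per Entrez gene for 24 libraries, not scaled to a common total, along with result tables of 4 contrasts that hold log2 values and p-values. Per the submitters' processing notes the tools were limma, edgeR, Salmon 1.4.0 and R 4.1.0 and the build GRCm39, with no role or order given, and the labels' protocols name a stranded mRNA kit read over 151 cycles from both ends. Estimated counts as deposited were rounded to whole numbers, scaled by TMM and fitted in all 24 libraries with edgeR 4.0.16 (glmQLFit and glmQLFTest, group as the only term, filterByExpr, Benjamini-Hochberg over 15405 genes, threshold 0.05). The filter kept 99.97% of counts and 9 of the 10 oocyte genes. DESeq2 1.42.0, another scaling, no filter, the replicate label as a block and leaving out each label were alternatives.

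The oocyte genes and the gene lists were chosen with earlier results of these data known. Of the erythrocyte markers 1 is not reported here. All 10 oocyte genes are named, and other genes are named up to 4 per list by the smallest adjusted p or the highest mean level, or as the 10 most alike in level over libraries. Further genes of the oocyte and receptor lists were named after their values were seen, where a small count of genes is given by name or a single gene's pattern is described. Likeness is Pearson's r of log2 CPM (prior count 2) with log2 of the summed CPM plus 0.1, for genes with a mean of at least 0.5 CPM. The replicate labels pair libraries, since the titles tie them to culture dates: deviations from group means over 10798 genes correlated above 0.1 in 17 of 20 same-label pairs (median r 0.53, range -0.692 to 0.957). The A_1 pairs for hCG at 12 h and for time in siNC control were at -0.692 and -0.647. Both hold siNC control 12 h A_1, so by this measure that library did not pair with its label there. The B_2 pair for time in siNC control was at 0.00755. No 2 libraries of a group agreed within sampling noise (36 pairs, chi-square over its degrees of freedom from 23.3 to 454). Promoters come from RefSeq (GRCm38.p6), transcript lengths from GENCODE M21 (GRCm38), and 0 per-sample columns were left unmapped.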

Additional observations from a re-analysis of the deposited data

Results flagged for a closer look

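In groups of 4 libraries, a library far from the other 3 was looked for by Dixon's ratio, the gap to the nearest library over the range of the group, against its 95% critical value, for 10 genes in 6 groups. Of the 60 cases 34 were flagged, and cases whose outlying library had fewer than 3 counts were not flagged. The critical value assumes normally distributed values, so its 5% chance rate does not hold for genes at or near 0 in most libraries. For such genes the ratio is close to 1 whenever 1 library of a group holds counts, so the flags only describe single libraries. All 34 lay in 5 libraries, and the values of 1 library are not independent of each other. In siNC control 4 h B_2 the levels were 1.26 CPM for Zp1, 2.55 for Zp3, 7.69 for Gdf9, 3.13 for Bmp15 and 1.19 for Nlrp5. In siNC hCG 4 h A_1 they were 0.723 CPM for Zp1, 1.42 for Zp2, 0.696 for Zp3, 1.31 for Bmp15, 0.751 for Oosp1, 1.03 for Dppa3 and 0.529 for Nlrp5. In siNTS hCG 4 h B_2 they were 0.855 CPM for Zp1, 2.47 for Zp2, 1.59 for Zp3, 6.26 for Gdf9, 1.18 for Bmp15, 0.601 for Oosp1 and 1.73 for Nlrp5.

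In siNC control 12 h B_3 they were 0.791 CPM for Zp1, 2.08 for Zp2, 1.4 for Zp3, 2.48 for Gdf9, 0.264 for Bmp15, 0.185 for Oosp1, 0.29 for Dppa3 and 1.74 for Nlrp5. In siNTS hCG 12 h A_1 they were 0.893 CPM for Zp2, 0.8 for Zp3, 5.85 for Gdf9, 1.39 for Bmp15, 1.51 for Oosp1, 1.2 for Dppa3 and 0.523 for Nlrp5. Ooep was flagged in no group. In siNC control 4 h there were 2 libraries with zona transcripts, A_1 and B_2.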

How the results depend on the processing

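The call of Ooep with time in siNC control held under the replicate block, RLE factors, no filter, DESeq2 and the loss of each label (log2 fold change -2.53 to -1.72 without 1 label). With hCG at 4 h 1 oocyte gene (Ooep) was called under the replicate block, and 0 to 1 without 1 label. Genes called were, with the replicate block, 4642 for hCG at 4 h, 4164 for hCG at 12 h, 3 and 91 for the Nts siRNA at 4 h and 12 h, and 2174 for the difference of the hCG effects. DESeq2 called 6 and 60 for the Nts siRNA and 1053 for the difference, and without a filter 14 (Nts siRNA at 12 h) and 385 (difference) were called. Without 1 label the counts ran from 1283 to 2485 for hCG at 4 h, 1268 to 2299 at 12 h, 0 to 3 and 0 to 40 for the Nts siRNA, 3137 to 4475 for time in control and 69 to 432 for the difference. Without 1 label the sign of some uncalled values turned: Gdf9 ran from -0.944 to 1.36 for hCG at 4 h (0.0382 with the block), -0.545 to 0.612 for hCG at 12 h, -0.893 to 0.922 for the Nts siRNA at 4 h, -2.35 to 0.0159 for time in control and -1.78 to 0.85 for the difference. Ooep ran from -0.62 to 0.0587 for hCG at 12 h and -0.178 to 0.547 for the Nts siRNA at 12 h. The median of the other oocyte genes ran from -0.28 to 2.46 for the Nts siRNA at 12 h and -3.09 to 0.851 for hCG at 4 h. The cause was not tested. The 12 recomputed group levels under other scalings moved by less than the spread between libraries. Depth limits the sparse genes: 3 counts are 0.0651 to 0.108 CPM.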

Other observations

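The library siNTS hCG 4 h A_1 held almost no zona transcripts but had the highest counts for some other genes. It had the highest count of all 24 libraries for Ooep (403), Dppa5a (180) and Suv39h2 (816), and among the 18 libraries without zona transcripts it had the highest count for Dppa3 (16), Khdc1b (19), Bcl2l10 (22), Btg4 (9), Tlr2 (182) and Khdrbs2 (263). This library was also the deepest of the 24, with 45401151 counts, and these counts are not scaled for depth. By CPM it was still the highest for Ooep (10.1), Dppa5a (4.52) and Suv39h2 (20.5). In the same library Zp1, Zp3 and Padi6 had 0, 0 and 1 counts. These genes were picked after their values were seen, and no test was made.

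When likeness was taken to the summed level of Zp1, Zp2, Zp3, Bmp15, Oosp1 and Nlrp5 alone, a measure added after the values were seen, the closest genes over the 24 libraries were Nlrp14 (r = 0.984), Khdc1b (0.956), Padi6 (0.944), Pla2g4c (0.857) and Cpeb1 (0.76), and the sixth, Dgkz, followed at 0.614. Nlrp14, Khdc1b and Padi6 had medians of 0.0249, 0.0254 and 0.0484 CPM. They reached the mean of 0.5 CPM needed of a candidate only through the 6 libraries with zona transcripts, so their high r is partly set by that choice. Pla2g4c had a median of 0.288 CPM and a mean of 0.589 CPM, with its highest level in siNC control 4 h B_2. The same limit may therefore hold for its r. Sohlh1, a transcription factor of early oocytes, had another pattern, with at most 23 counts in the 6 libraries with zona transcripts and up to 43 in siNC hCG 12 h A_1. In siNC control it had 0, 6, 1 and 2 counts at 4 h and 7, 17, 22 and 11 at 12 h, and it rose with time (adjusted p = 0.0012 in edgeR's quasi-likelihood test).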
